A study of Mus musculus with 12 samples.

Results

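The complement and coagulation genes of the liver were followed in 12 mouse liver RNA-seq libraries. They were 41 genes named by symbol, from complement component C2 to vitronectin (Vtn), and were read by their gene name from a table of 55903 genes. By role they divide into 8 genes of complement initiation and the lectin pathway, 8 of C3, the alternative and the terminal pathway, 4 complement inhibitors, 3 fibrinogen chains, 10 clotting proenzymes and cofactors, 5 anticoagulants and 3 genes of fibrinolysis. The study set 4 libraries of young control liver, described as control, beside 4 libraries whose titles call them aged control while their description reads doxo, and 4 libraries treated with KSL0608-Se and described as doxo-KSL0608-Se. The second group is called aged/doxo here because the labels do not settle whether age, doxo or both set it apart from the young control, and doxo is named in the description of both later groups. The labels give no strain, sex, dose, time or age in weeks. The labels number the libraries of a group as replicates without tying them to animals, so each p-value reflects variation among libraries that may be technical.

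Most soluble complement and clotting proteins are made by hepatocytes and secreted into the blood. In the lectin pathway, mannose-binding lectins bind sugars on microbes and bring the proteases MASP1 and MASP2, which cleave C4 and C2, and the route then runs through C3 to the terminal components C5 to C9. Clotting runs as a cascade of proenzymes to thrombin, which turns fibrinogen into fibrin, held in check by antithrombin and the protein C system and undone by plasmin. In mice both Mbl1, which encodes mannose-binding lectin A, and Mbl2, which encodes mannose-binding lectin C, are active genes.

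Promoter sequence from RefSeq on GRCm38.p6 was matched by symbol for 32 of the 41 genes. The stretches of 250 bases before the start of Mbl1 and Mbl2 are shown because these 2 related lectin genes had unlike values over the groups. Mbl1 lies at chr14:41151206-41151455 and Mbl2 at chr19:30232678-30232927, both on the plus strand, and capitals mark the longest run of bases that the windows share.
Mbl1: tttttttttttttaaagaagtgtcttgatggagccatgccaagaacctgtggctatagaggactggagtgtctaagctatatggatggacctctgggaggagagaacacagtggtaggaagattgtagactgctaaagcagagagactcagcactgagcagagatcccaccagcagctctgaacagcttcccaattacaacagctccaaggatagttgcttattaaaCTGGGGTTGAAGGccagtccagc
Mbl2: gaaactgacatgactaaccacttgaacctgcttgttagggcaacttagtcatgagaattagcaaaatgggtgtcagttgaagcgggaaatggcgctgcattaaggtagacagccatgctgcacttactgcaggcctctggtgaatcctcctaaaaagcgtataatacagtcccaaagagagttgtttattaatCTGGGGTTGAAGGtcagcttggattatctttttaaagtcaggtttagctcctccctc
The run CTGGGGTTGAAGG is 13 bases long. It begins at position -23 in Mbl1 and at position -57 in Mbl2, counted from the RefSeq start. It was found on either strand in 3 of 32851 promoter windows of the same length (0.00913%), those of Mbl1, Mbl2 and Slc25a53. The windows of Mbl1 and Mbl2 hold it by the way it was chosen, so this share does not measure how rare a shared run is.

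The windows of the 3 fibrinogen genes are shown because these neighbouring genes on chromosome 3 encode the chains of 1 protein and their values are given below library by library. They lie at chr3:83025903-83026152 (Fga, plus strand), chr3:83049864-83050113 (Fgb, minus strand) and chr3:83007474-83007723 (Fgg, plus strand), each printed 5′ to 3′ on the strand of its gene. Capitals mark matches to TTGCNNAA, a consensus of the C/EBP factors, and to CTGGGAA, a core of the interleukin-6 response element, both searched on both strands.
Fga: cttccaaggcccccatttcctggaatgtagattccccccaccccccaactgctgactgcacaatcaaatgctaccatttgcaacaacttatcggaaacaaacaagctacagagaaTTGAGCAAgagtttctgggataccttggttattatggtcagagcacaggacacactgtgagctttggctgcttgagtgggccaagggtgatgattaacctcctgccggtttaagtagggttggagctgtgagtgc
Fgb: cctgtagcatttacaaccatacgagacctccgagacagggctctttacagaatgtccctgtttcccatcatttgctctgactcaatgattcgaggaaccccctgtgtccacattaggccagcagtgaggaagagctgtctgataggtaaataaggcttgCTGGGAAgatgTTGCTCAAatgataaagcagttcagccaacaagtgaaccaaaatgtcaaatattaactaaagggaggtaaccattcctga
Fgg: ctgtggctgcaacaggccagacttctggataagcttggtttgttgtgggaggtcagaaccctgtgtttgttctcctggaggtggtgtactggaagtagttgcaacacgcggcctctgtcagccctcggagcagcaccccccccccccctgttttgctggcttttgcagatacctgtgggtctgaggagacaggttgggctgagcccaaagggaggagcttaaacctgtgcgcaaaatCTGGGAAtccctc
The C/EBP letters stood at -135 to -128 in Fga and at -80 to -73 in Fgb. The interleukin-6 element letters stood at -91 to -85 in Fgb and at -13 to -7 in Fgg. Over all 32851 windows, 9.56% held the C/EBP letters and 9.1% the interleukin-6 element letters, so both are common. Among the 32 members with a window, 8 held the first (Fga, Fgb, C1s1, F11, Klkb1, C9, C3 and F9) and 5 the second (Fgg, Fgb, Masp2, C1ra and F9). The HNF1 motif, found in 0.371% of all windows, was in those of C4bp, F13b and Hc, and the FOXA letters TGTTTAC, found in 3.17%, in those of F11 and Klkb1. No member window held the HNF4A letters CAAAGTCCA, found in 0.384% of all windows. In the printed sequences no match overlapped another.

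Expression was given as TPM (a level per transcript length, scaled so that each library sums to the same total), which holds no sequencing depth, so values carry no counting intervals. Between 9568 and 11023 genes reached 1 TPM in a library. Mitochondrially encoded transcripts took 8.10% to 12.4% of the total in 11 libraries and 27.6% in aged/doxo library 2. The 10 hepatocyte markers matched in the table, of 11 listed, summed to between 84968 and 119970 TPM over the 12 libraries, the lowest being 84968 TPM in young control library 1, followed by 85916 TPM in library 2 of the aged/doxo group. Albumin was also lowest in those 2, at 21956 and 16214 TPM, against at least 32461 TPM in the others. Markers of Kupffer cells, the liver's macrophages, all 12 of them in the table, summed to 82.4 to 525 TPM in aged/doxo, lowest in library 2. The sums were 199 to 361 TPM in young control and 209 to 315 TPM in treated liver. Their median log2 difference in aged/doxo against young control was -0.49, and -0.19 without the 2 libraries lowest in albumin. In treated against aged/doxo liver it was 0.49, and 0.22 without both. The medians of all genes tested were -0.08 and -0.04, and 0.30 and 0.13. Erythroid markers summed to 836 to 1991 TPM in young control, 1839 to 2568 TPM in aged/doxo and 846 to 1778 TPM in treated liver. At an unadjusted p under 0.05, 4 of the 5 tested were higher in aged/doxo than in young control, as were 1.19% of all genes tested. At the same level 4 were lower in treated than in aged/doxo liver, as were 0.946% of all genes tested. None passed the adjusted threshold. Markers of sinusoidal endothelium summed to 42.9 to 87.6 TPM in young control, 45.0 to 104 TPM in aged/doxo and 61.7 to 117 TPM in treated liver. Of these 12 markers, 5 were higher and 1 lower in treated than in aged/doxo liver at an unadjusted p under 0.05, and none passed the adjusted threshold. Their median log2 difference was 0.59, and 0.53 without the 2 libraries lowest in albumin. Of all genes tested, 3.82% were higher and 0.946% lower at that level in this comparison. Stellate cell markers summed to 57.8 to 93.6, 59.7 to 140 and 83.5 to 103 TPM in the 3 groups, and 1 of 10 was higher and 2 lower at an unadjusted p under 0.05 in the same comparison, among them Acta2 (log2 difference -1.32, limma adjusted p = 0.427). Neutrophil markers and platelet markers each summed to at most 7.05 TPM in any library. The part of these differences in the results below was not tested, and in bulk tissue fewer cells of a type and less RNA per cell cannot be told apart.

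Aged/doxo library 2 and young control library 1 stood apart from the rest of their groups, in the complement and coagulation genes and over the whole table. Against the median of the other 3 aged/doxo libraries, library 2 was lower in 39 of 41 members, and 25 of them were lower by more than 1 on the log2(TPM + 1) scale. The median member deviation was -1.09, beside -0.64 over all 10883 genes with a mean of at least 1 TPM, of which 81.6% were lower and 29.5% lower by more than 1. Young control library 1 was lower than the median of the other 3 young libraries in 37 of 41 members, beside 82.9% of all genes, and by more than 1 in 8 members, beside 15.1%. Its median deviation was -0.49, beside -0.52 over all genes. The deviations spanned a wide range between genes of related function. In aged/doxo library 2 the fibrinogen alpha chain gene Fga deviated by -2.84, F13b, which encodes the carrier subunit of factor XIII, by -2.71, C3 by -2.57 and Fgg by -2.49. Vtn deviated by 0.33, C4b by 0.21, C8g by -0.09 and Cfb by -0.14 in the same library. The order of the genes was alike in both libraries. Across the 41 members the deviations of the 2 libraries had a Pearson correlation of 0.893 and a Spearman correlation of 0.899, beside 0.579 and 0.603 across all genes tested. These are correlations across genes, which are not independent replicates, and the members share the same libraries and tissue. The 2 sets of genes were not matched by level. The lowest member had a mean of 12.1 TPM, while the genes tested reached down to a mean of 1 TPM. The Pearson correlation of the members' deviations in aged/doxo library 2 was 0.234 with transcript GC content and -0.09 with log2 gene length, and in young control library 1 it was 0.137 and -0.10. Over all genes the correlation with log2 gene length was -0.18 and -0.29 in the same order. The same 2 libraries had the steepest fall of level with gene length of the 12 (slopes of -0.473 and -0.472), with aged/doxo library 4 close to them at -0.449. The 2 libraries also had the fewest genes at 1 TPM (9741 and 9568), against 10756 in aged/doxo library 4. The part of the slopes and of these gene numbers in the members' values was not tested.

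**Figure D1:**
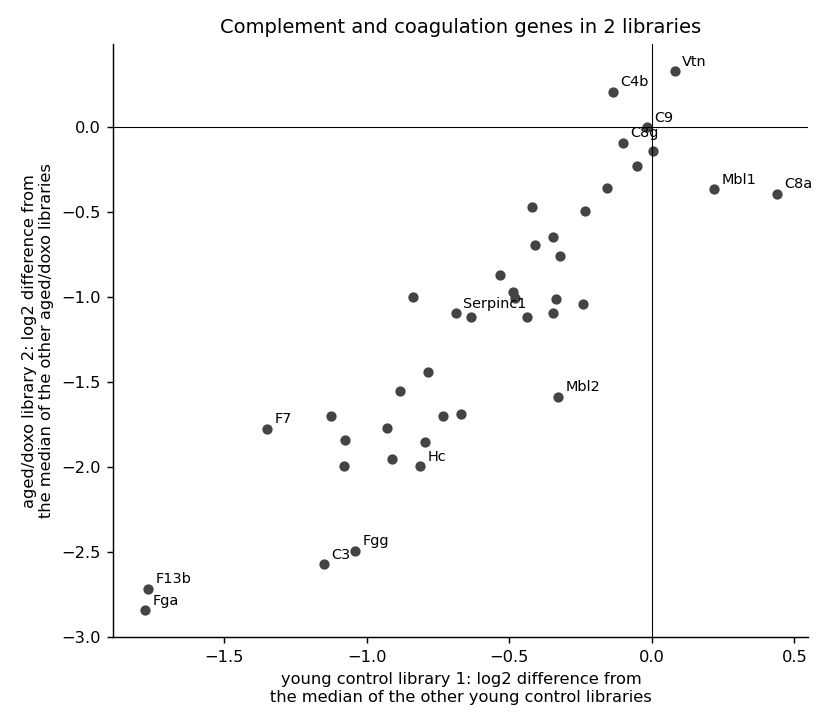
Each point is 1 of the 41 complement and coagulation genes. The horizontal axis gives its log2 difference in young control library 1, and the vertical axis that in aged/doxo library 2, each from the median of the other 3 libraries of the group. Fga lies farthest to the lower left, at -1.78 and -2.84, with F13b beside it, while C8g, C9 and Cfb lie near 0 on both axes.

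By mean level over the 12 libraries the members spanned a 209.95-fold range, and 7 of them ranked among the 100 most abundant of all genes. The highest was Serpinc1, the gene of antithrombin, with 1624, 2838, 2455 and 2617 TPM in young control, 2779, 1274, 2726 and 2567 TPM in aged/doxo and 2636.5, 2955, 3062 and 2997 TPM in treated liver. Its 2 lowest values were those of the 2 libraries that stood apart. Fgg and Fga came next, with overall means of 2126 and 1957 TPM, followed by Vtn (1857 TPM), Kng1 (1302 TPM), C3 (1288 TPM) and Fgb (1172 TPM). The lowest was Pros1, the gene of protein S, the cofactor of activated protein C, with 6.71, 15.4, 10.2 and 13.2 TPM in young control, 15.7, 3.37, 11.8 and 10.46 TPM in aged/doxo and 11.1, 12.8, 17.2 and 17.5 TPM in treated liver. F11 and Masp1 stood just above it, both at means near 25.2 and 25.3 TPM. Together the members took 1.99% ± 0.49 of the TPM total in young control (SD, n = 4), 1.90% ± 0.58 in aged/doxo (n = 4) and 2.31% ± 0.20 in treated liver (n = 4). Without the libraries that stood apart these shares were 2.19% ± 0.34 (n = 3) and 2.18% ± 0.14 (n = 3) for the first 2 groups.

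**Figure D2:**
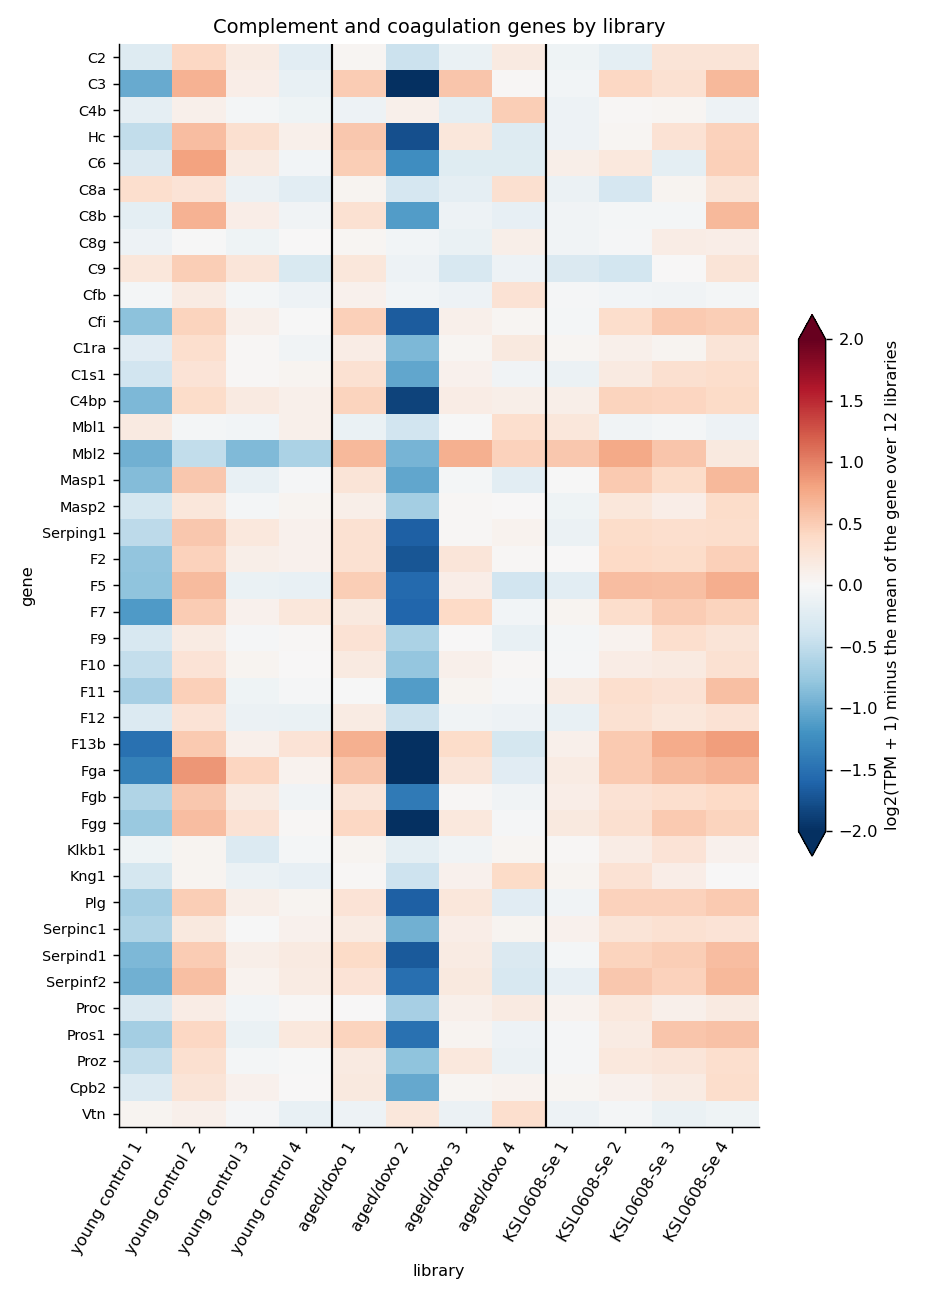
Rows are the 41 genes, complement first and clotting after, with Vtn last, and columns the 12 libraries. Colour gives log2(TPM + 1) minus the mean of the gene over all libraries. The columns of young control library 1 and aged/doxo library 2 are low in most rows, and the Mbl2 row separates the young control libraries and aged/doxo library 2 from the other 7.

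The members differed in how steady they were. Over the 12 libraries the highest C8g value was 1.22-fold the lowest, that of Cfb 1.32-fold and that of Vtn 1.39-fold, whereas Fga spanned 11.2-fold and F13b 10.1-fold. Leaving out the 2 libraries that stood apart, Fga spanned 2.16-fold and F13b 2.31-fold over the other 10. The median SD of the members on the log2(TPM + 1) scale was 0.464 over 12 libraries and 0.201 over 10, beside 0.386 and 0.248 over all genes tested. Mbl2 had the largest SD of any member over those 10 libraries, at 0.617, ahead of F5 at 0.425. The smallest was that of Proc, the gene of protein C, at 0.083.

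Each pair of groups was compared with limma on log2(TPM + 1) over the 10883 genes tested, with all 12 libraries in the fit and Benjamini-Hochberg adjustment over all those genes. All 41 members passed the filter on low values. In aged/doxo against young control no member passed an adjusted p of 0.05, where 0.00919% of all genes did, and 1 member, Mbl2, had an unadjusted p under 0.05, where 1.19% of all genes did so on the higher side and 0.781% on the lower. In no member did the groups stand clear of each other (0.689% of all genes higher and 0.312% lower), while without both libraries that stood apart those of Mbl2 alone did so, on the higher side, as did 2.94% of all genes. In treated against aged/doxo liver 0 members passed (0.00919% of all genes) and 0 had an unadjusted p under 0.05 (3.82% higher and 0.946% lower over all genes). In treated against young control 0 passed (0.0276% of all genes), and Mbl2 alone had an unadjusted p under 0.05 (2.74% higher and 0.662% lower over all genes). The 3 comparisons share libraries and are not independent of each other.

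The members leaned to the same side as the whole table in each comparison. The log2 difference was above 0 in 7 of 41 members (17.1%) in aged/doxo against young control, beside 35.2% of all genes. It was above 0 in 36 members (87.8%) in treated against aged/doxo, beside 81% of all genes, and in 34 members (82.9%) in treated against young control, beside 84%. The median log2 differences in the same order were -0.18, 0.38 and 0.23 for the members and -0.08, 0.30 and 0.23 for all genes. Without aged/doxo library 2 the first became 0.11 (all genes 0.10), with 36 of 41 members above 0, and the second 0.11 (all genes 0.13). Without young control library 1 as well, the first was -0.018 (all genes -0.040), with 15 of 41 members above 0. With scaling by the median of ratios, which brought the medians of all genes to -0.04, 0.03 and -0.01, the members above 0 numbered 7, 23 and 17. The last 2 shares sat near the background, the first 2 counts moved with 1 library, and the last 2 moved with the scaling.

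Read by role, the medians in treated against aged/doxo liver were smaller once the libraries that stood apart were left out, as was that of all genes (0.30 and then 0.13). With all libraries, treated against aged/doxo liver had medians of 0.27 for complement initiation and lectins, 0.22 for C3 and the terminal pathway, 0.57 for the inhibitors, 0.79 for fibrinogen, 0.44 for the clotting factors, 0.38 for the anticoagulants and 0.68 for fibrinolysis. Without both libraries these became 0.0096, -0.019, 0.10, 0.22, 0.15, 0.11 and 0.25. The fibrinogen median in aged/doxo against young control was -0.46 with all libraries and -0.15 without both, and in treated against young control 0.32 and 0.058.

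**Figure D3:**
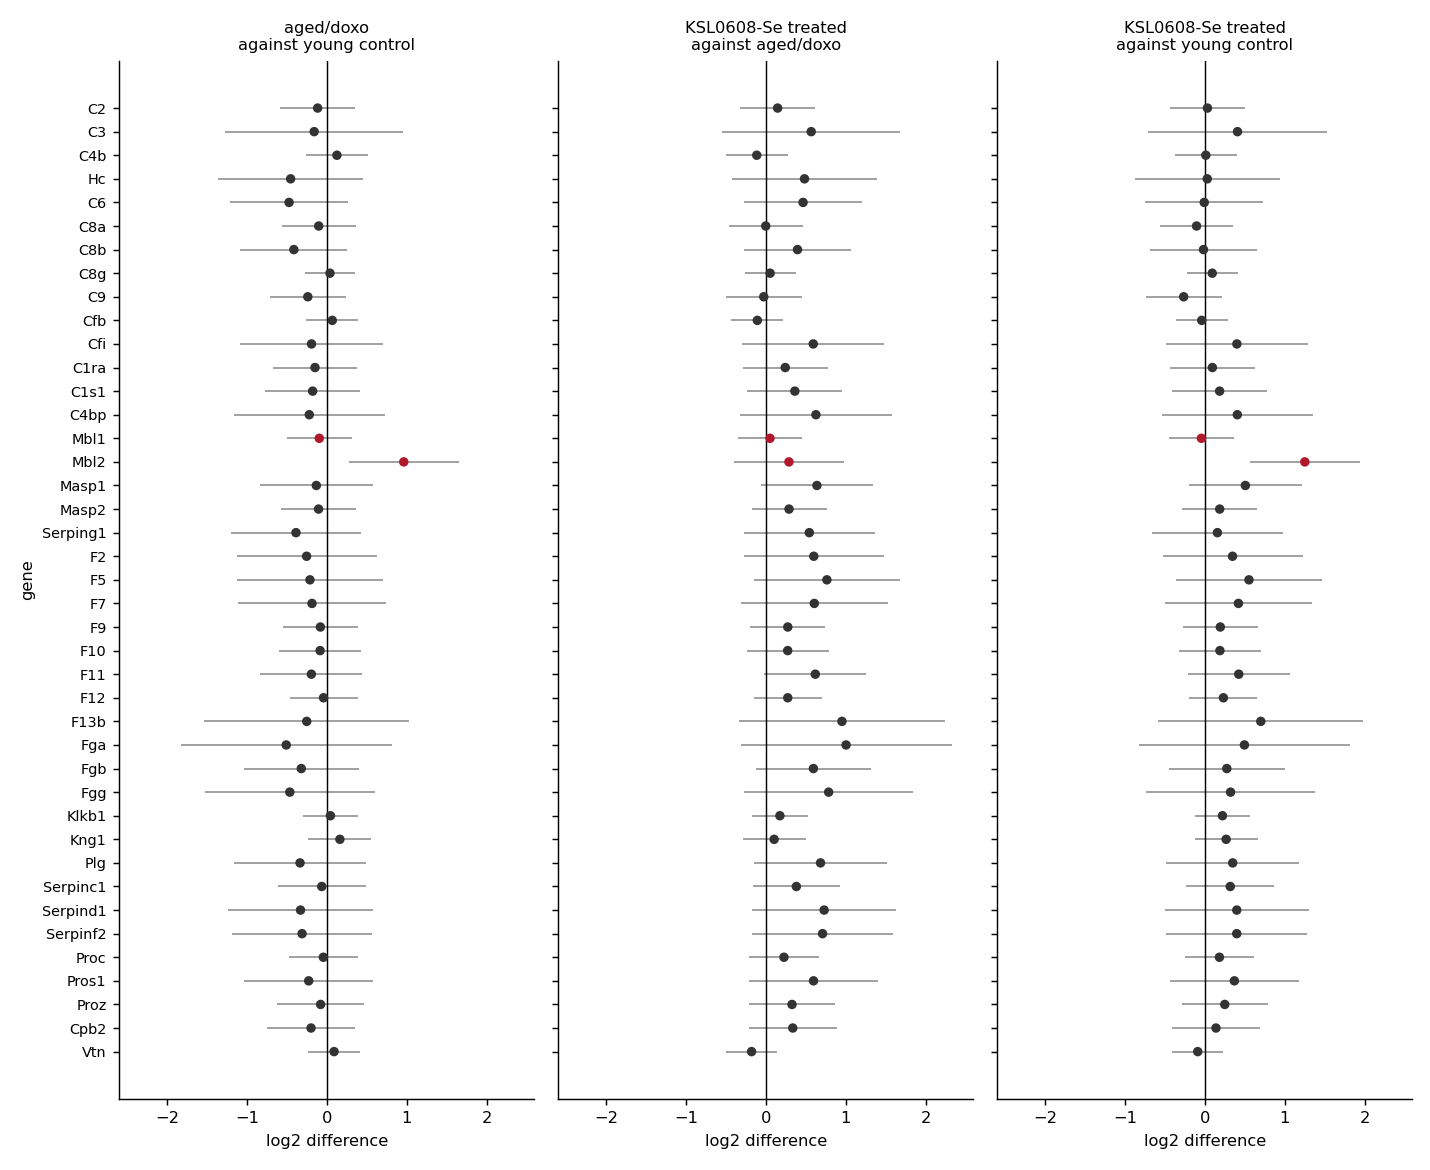
Points are the log2 differences of the 41 genes in the 3 comparisons and lines their 95% intervals from limma, with Mbl1 and Mbl2 in red. The interval of Mbl2 lies above 0 in the left and right panels, from 0.27 and from 0.56, and every other interval includes 0.

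Among the genes of complement initiation and the lectin pathway, Mbl2 stood out and its relative Mbl1 did not. Mbl2 (chr19:30232942-30239687, plus strand, GENCODE M21 on GRCm38) was measured at 213, 295, 223 and 267 TPM in young control, at 651, 216, 679 and 569 TPM in aged/doxo and at 603, 698, 607 and 475 TPM in treated liver. Of the 8 libraries described with doxo, 7 lay above every young control library, the lowest of them 1.61-fold above the highest young one, while aged/doxo library 2 lay inside the young range. The group means were 249.5 ± 38.3 TPM, 529 ± 214 TPM and 596 ± 91.6 TPM (SD, n = 4 each), so that aged/doxo and treated liver had 2.12-fold and 2.39-fold the young mean. Without library 2 the aged/doxo mean was 633 ± 56.9 TPM (n = 3), or 2.54-fold.

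In aged/doxo against young control the log2 difference of Mbl2 was 0.96 (SE 0.32, 95% interval 0.27 to 1.65, limma adjusted p = 1), and the groups overlapped through library 2. Leaving that library out gave 1.35 and an adjusted p of 0.0249 in the limma fit over all genes, past the threshold. Leaving out young control library 1 as well gave 1.28 and an adjusted p of 0.0571. In treated against young control the difference was 1.25 (95% interval 0.56 to 1.94, limma adjusted p = 0.734) and the groups did not overlap, as in 3.66% of all genes on the higher side. The gene ranked 23 by p among the 10883 genes. Without aged/doxo library 2, which enters this comparison only through the shared estimate of spread, the limma adjusted p was 0.0219, and without both libraries that stood apart the difference was 1.18 with an adjusted p of 0.0419. Library 2 is also the library with 27.6% mitochondrial transcripts and the lowest Kupffer cell marker sum, whose part in its Mbl2 value was not tested. The call on Mbl2 thus rested on whether 1 aged/doxo library was kept, while the difference of treated from young control liver ran from 1.17 to 1.36 with any 1 library left out. Treated and aged/doxo liver differed by 0.29 (95% interval -0.40 to 0.98, limma adjusted p = 0.560), and by -0.10 without library 2.

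Mbl1 (chr14:41151458-41159601, plus strand) was at 203, 174, 171 and 190.5 TPM in young control, 162, 137, 177 and 225 TPM in aged/doxo and 209, 171, 173 and 165 TPM in treated liver. The 3 groups overlapped throughout, with log2 differences of -0.09, 0.05 and -0.04 in the order used above. Its intervals reached no farther than -0.50 and 0.46 in any comparison, so the 95% interval of Mbl1 in treated against young control (-0.45 to 0.36) lay below that of Mbl2. The ratio of Mbl2 to Mbl1 within a library does not depend on how the library was scaled. It was 1.05, 1.70, 1.30 and 1.40 in young control, 4.02, 1.58, 3.84 and 2.53 in aged/doxo and 2.89, 4.09, 3.51 and 2.88 in treated liver. The mean ratio, taken on the log2 scale, was 2.46-fold higher in treated than in young control liver, without overlap (two-sided exact permutation p = 0.0286, the smallest that 4 against 4 allows, adjusted p = 0.514 over 18 tests of 6 ratios in 3 comparisons). It was 2.09-fold higher in aged/doxo than in young control, again with library 2 inside the young range (exact permutation p = 0.0571, adjusted p = 0.514). Between treated and aged/doxo it differed 1.18-fold (exact permutation p = 0.543, adjusted p = 0.845).

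**Figure D4:**
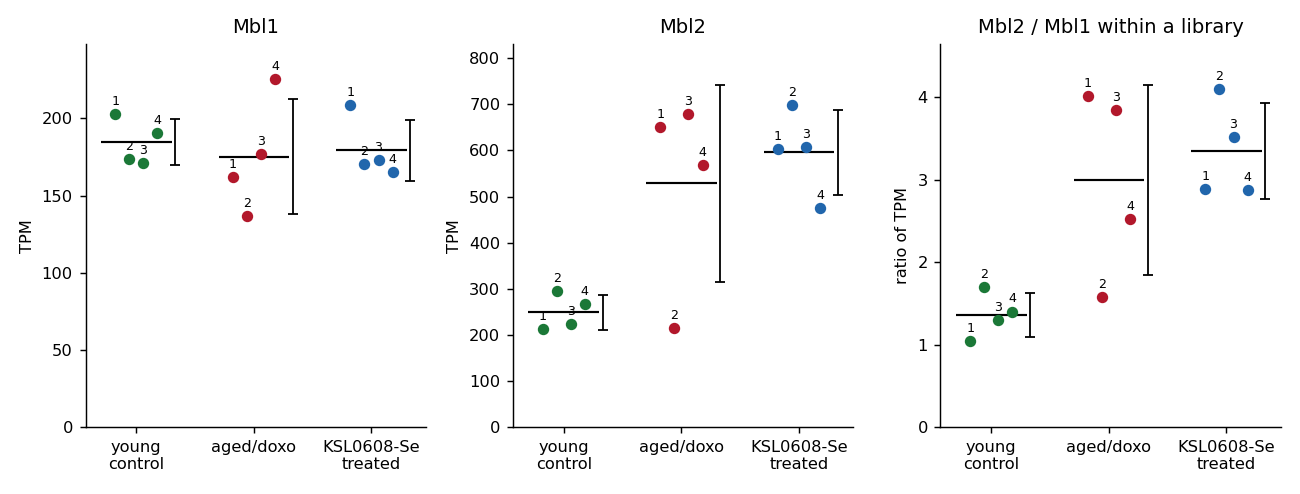
TPM of Mbl1 and Mbl2 and their ratio within each library, by group, with 1 point per library, the group mean as a line and its SD as a bar. Mbl1 stays between 137 and 225 TPM, and the ratio is between 1.05 and 1.70 in young control and between 2.88 and 4.09 in treated liver.

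In the partners of the lectins no such separation of the groups was seen. Masp1, the protease that activates MASP2, was at 12.6, 35.1, 21.5 and 23.4 TPM in young control, 28.8, 11.1, 23.3 and 20.4 TPM in aged/doxo and 23.6, 34.9, 31.1 and 37.9 TPM in treated liver. Its treated values overlapped both other groups, with log2 differences of 0.64 from aged/doxo (limma adjusted p = 0.427) and 0.51 from young control (adjusted p = 0.734). The first was 0.38 without aged/doxo library 2 and 0.81 without aged/doxo library 1, and the second 0.26 without young control library 1 and 0.73 without young control library 2. Masp2, the protease that cleaves C4 and C2, averaged 165 ± 26.6, 155 ± 35.0 and 187 ± 24.0 TPM in young control, aged/doxo and treated liver (SD, n = 4 each, as for all means below unless stated). C1ra and C1s1, the proteases of the classical pathway's C1 complex, averaged 114 ± 19.6 and 189 ± 34.5 TPM in young control, and C2 averaged 54.9 ± 12.5 TPM. The ratio of C1s1 to C1ra stayed between 1.40 and 2.03 in all 12 libraries, with no difference between groups of more than 0.12 on the log2 scale. C4b averaged 424 ± 35.1, 470 ± 105 and 427 ± 22.3 TPM. C4b shares most of its sequence with C4a, Kng1 with Kng2, C1ra with C1rb and C1s1 with C1s2, so how the authors' counting split reads between them is uncertain.

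Over the 12 libraries C3 and the terminal pathway held both the most and the least variable complement genes, while over the 10 without those that stood apart Mbl2 (SD 0.617 on the log2 scale) varied more than C3 (0.307). C3, on which all activation routes converge, ran at 574, 1874, 1275 and 1039 TPM in young control, 1654, 277, 1704 and 1170 TPM in aged/doxo and 1109, 1535, 1432 and 1816 TPM in treated liver, so its 2 lowest values came from the libraries that stood apart. Cfb, the protease of the alternative pathway, lay between 704.5 and 930 TPM in every library. C6, which joins the membrane attack complex after C5b, was at 74.4, 161, 104 and 88.5 TPM in young control, 129, 38.0, 77.2 and 77.0 TPM in aged/doxo and 99.3, 106, 79.8 and 128 TPM in treated liver. C6 and C8b had the smallest p after Mbl2 in aged/doxo against young control, with log2 differences of -0.47 and -0.41 (limma adjusted p = 1 for both). Both groups overlapped, and leaving out 1 library at a time gave -0.74 to -0.16 for C6 and -0.61 to -0.13 for C8b.

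The 3 chains of C8, the component that first inserts into the membrane, differed in their spread over the libraries. C8g, which encodes the gamma chain, lay between 371 and 451 TPM in all 12 libraries. C8b, the beta chain gene, was at 135, 253, 171 and 148 TPM in young control, 192, 71.0, 145 and 139 TPM in aged/doxo and 148, 152, 151 and 244 TPM in treated liver. C8a, the alpha chain gene and the neighbour of C8b on chromosome 4, lay between 198 and 315 TPM. The C8b to C8a ratio was lowest in the libraries that stood apart, at 0.430 (young) and 0.357 (aged/doxo), and the other 10 ranged from 0.443 to 0.838. None of the 6 tests on the C8 ratios gave an exact permutation p below 0.229, and the adjusted values were 0.845 to 0.878. C9, which forms the pore, averaged 305 ± 66.3, 256 ± 41.0 and 252 ± 51.4 TPM and Hc, the gene of C5, 223 ± 67.7, 183 ± 98.0 and 222 ± 38.2 TPM in young control, aged/doxo and treated liver.

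Of the complement inhibitors, Vtn, whose product blocks the assembling terminal complex, was the steadiest, with group means of 1851 ± 136, 1984 ± 312 and 1736 ± 49.6 TPM. Cfi, the protease that degrades C3b and C4b, averaged 242 ± 80.4, 230 ± 111 and 308 ± 52.4 TPM. C4bp, whose product is a cofactor in that step, averaged 158 ± 51.6, 151 ± 74.4 and 200.4 ± 20.3 TPM. Serping1, the gene of the C1 inhibitor, which also acts on the contact proteases of clotting, averaged 381 ± 111, 316 ± 140.5 and 415 ± 62.4 TPM. The SDs of these last 3 genes exceeded the gaps between the group means in young control and aged/doxo. None of the 4 had groups that did not overlap.

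Fga and Fgg, with F13b, had the widest spread over the 12 libraries among the clotting genes, and the lowest values of all 3 fibrinogen genes lay in the libraries that stood apart. Fga, the alpha chain gene, was at 655, 3089.85, 2248 and 1752 TPM in young control, 2473, 276, 1985 and 1431 TPM in aged/doxo and 1872, 2415, 2586 and 2694 TPM in treated liver. Fgb, the beta chain gene, was at 735, 1621, 1267 and 1060.0 TPM, at 1321, 416, 1129 and 1061 TPM and at 1217, 1358, 1409 and 1473 TPM in the same order. Fgg, the gamma chain gene, was at 1149, 2957, 2366 and 1952 TPM, at 2567, 397, 2238 and 1895 TPM and at 2204, 2397, 2756 and 2631 TPM. In all 3 genes the treated libraries lay inside the range of the young control, and aged/doxo library 2 was the lowest of the 12. The log2 differences of treated from aged/doxo liver were 1.00 for Fga, 0.60 for Fgb and 0.79 for Fgg (limma adjusted p = 0.427 for all 3). They were 0.31, 0.22 and 0.17 once aged/doxo library 2 was left out. In aged/doxo against young control they were -0.51, -0.32 and -0.46, and 0.19, 0.05 and 0.15 without that library, so the sign turned with 1 library. Without young control library 1 as well, the median of the 3 genes was -0.15, below 0 as with all libraries.

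The chains did not keep a constant ratio in the libraries that stood apart. Fga to Fgb was 0.891 in the young one and 0.664 in the aged/doxo one, and 1.35 to 1.91 in the other 10. Fgg to Fgb was 1.56 and 0.956 in those 2 libraries and 1.76 to 1.98 in the others. Between groups the ratios differed by at most 0.41 on the log2 scale, and the smallest exact permutation p of the 6 tests was 0.314 (adjusted 0.845).

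**Figure D5:**
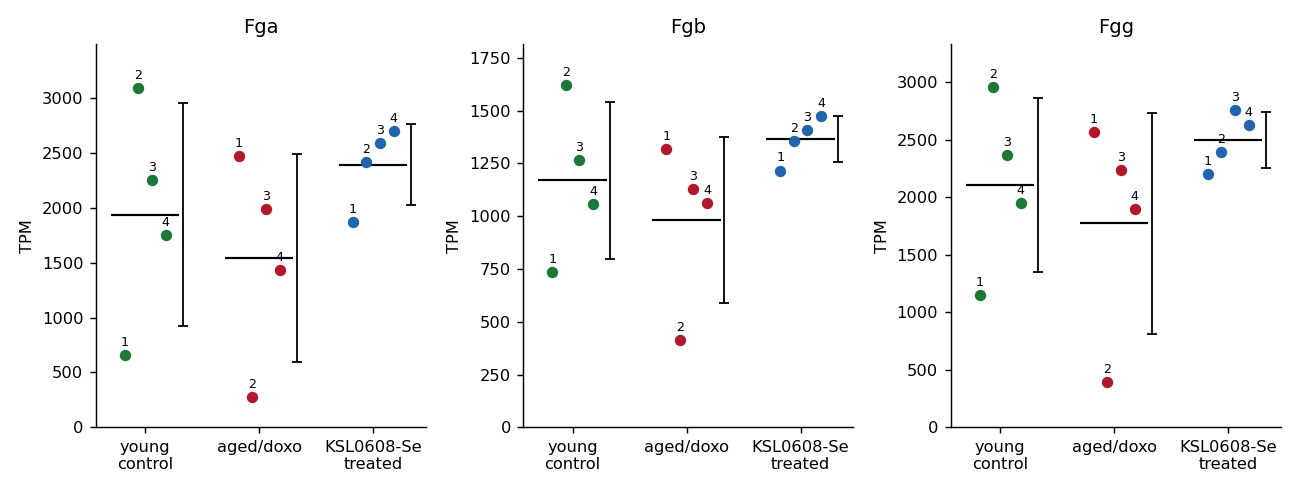
TPM of Fga, Fgb and Fgg by group, with 1 point per library, the group mean as a line and its SD as a bar. One young control library and 1 aged/doxo library lie below the rest in each panel, at 655 and 276 TPM for Fga, and the treated libraries lie within the young range.

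Among the clotting proenzymes and cofactors, F11, whose product links contact activation to factor IX, was the only member whose treated and aged/doxo groups did not overlap, as in 2.77% of all genes on the higher side. It was at 14.85, 33.8, 22.5 and 23.6 TPM in young control, 24.0, 10.51, 25.1 and 23.7 TPM in aged/doxo and 27.1, 30.6, 29.7 and 36.8 TPM in treated liver. The treated values lay above all aged/doxo values, and 3 of the 4 lay inside the young range. Its log2 difference was 0.62 (95% interval -0.02 to 1.26, limma adjusted p = 0.427), and 0.34 without aged/doxo library 2. F5, whose product is the cofactor of factor Xa, was at 22.4, 62.6, 36.3 and 35.7 TPM in young control, 56.6, 12.9, 43.9 and 30.5 TPM in aged/doxo and 34.5, 61.9, 61.3 and 66.9 TPM in treated liver. Its groups overlapped, with a difference of 0.76 between treated and aged/doxo liver (limma adjusted p = 0.427) that was 0.35 without aged/doxo library 2. Kng1, the kininogen gene of the contact system, was at 1014, 1332, 1193 and 1146 TPM in young control, 1303, 969, 1367 and 1681 TPM in aged/doxo and 1333, 1576, 1418 and 1297 TPM in treated liver. In treated against young control only Mbl2 and Masp1 had a smaller p among the members, and its difference was 0.27 (limma adjusted p = 0.734).

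The other clotting factors showed the same order of group means, treated above young control above aged/doxo, save for Klkb1, but the place of aged/doxo rested on library 2. F2, the prothrombin gene, averaged 829.8 ± 267, 757 ± 349.5 and 1014 ± 135 TPM in young control, aged/doxo and treated liver, and F7, which starts the extrinsic route with tissue factor, 48.8 ± 19.9, 44.5 ± 20.8 and 60.9 ± 8.03 TPM. F9 and F10, the next proteases of the cascade, averaged 49.6 ± 6.94 and 267 ± 54.3 TPM in young control and 56.7 ± 6.81 and 300.04 ± 27.8 TPM in treated liver. F12, the contact factor XII gene, averaged 253 ± 44.0, 246 ± 41.0 and 297 ± 41.3 TPM, and F13b 46.8 ± 21.98, 45.0 ± 29.6 and 69.1 ± 14.7 TPM. Without that library the aged/doxo means of F2, F7, F9, F10, F12 and F13b were 928, 54.3, 52.9, 288, 263 and 57.3 TPM (n = 3). All were below treated liver and above the young control means, which still held the low young control library 1. With both libraries left out, the 10 clotting proenzymes and cofactors had a median log2 difference of -0.022 in aged/doxo against young control. It was -0.14 with all libraries. Klkb1, the prekallikrein gene, was steady at 41.1 to 60.3 TPM. No clotting gene among the 41 members reached an unadjusted p under 0.05 in any comparison.

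The anticoagulants and the genes of fibrinolysis had the same order of group means, again with the place of aged/doxo resting on library 2. The log2 differences of the 5 anticoagulants ran from -0.33 to -0.04 in aged/doxo against young control and from 0.23 to 0.73 in treated against aged/doxo, where their median was 0.38 with all libraries and 0.11 without both that stood apart. Serpind1, which encodes heparin cofactor II, a second thrombin inhibitor, averaged 224.5 ± 80.2, 191 ± 93.9 and 283 ± 51.9 TPM, and Proz, whose product serves an inhibitor of factor Xa, 106 ± 24.3, 102 ± 29.3 and 125 ± 12.9 TPM. Proc was steadier, at 408 ± 50.9, 403 ± 94.3 and 461 ± 20.3 TPM. Plg, the gene of plasminogen, the precursor of plasmin, averaged 717 ± 222, 613 ± 283 and 888 ± 154 TPM, and Serpinf2, which encodes the plasmin inhibitor, 353 ± 139, 294 ± 132 and 444 ± 99.9 TPM. Cpb2, whose product slows fibrinolysis, averaged 229 ± 33.4, 208 ± 66.5 and 251 ± 25.9 TPM. Without aged/doxo library 2, the aged/doxo means of Plg and Cpb2 were 744 ± 135 and 241 ± 14.9 TPM (n = 3), above rather than below the young control, and that of Serpinf2 was 353 ± 74.3 TPM, level with it. Those of the anticoagulants Serpinc1, Serpind1, Proc, Pros1 and Proz were then 2690.5, 233, 449, 12.7 and 116 TPM, each above its young control mean. All these young control means still held the low library 1 of that group. Without both libraries that stood apart, the median log2 difference in aged/doxo against young control was -0.0046 for the anticoagulants and -0.13 for fibrinolysis. With all libraries these medians were -0.079 and -0.31.

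Other genes of the same systems were read from lists, of which 21 of 33 further complement genes and 20 of 32 further clotting and fibrinolysis genes had a mean of at least 1 TPM. The second list also held Proca1, which encodes a protein interacting with cyclin A1 and is not a clotting gene. No gene of either list passed an adjusted p of 0.05 in any comparison. At an unadjusted p under 0.05 the complement list held 0, 1 and 1 genes and the clotting list 1, 1 and 1, in the order used above, and none of these was lower. Over all genes 1.19%, 3.82% and 2.74% were higher at that level, so counts of 0 or 1 among 21 and 20 genes were near the background. They were Cd55, a brake on complement at the cell surface, at 1.85 ± 1.03 TPM in aged/doxo and 3.09 ± 0.80 TPM in treated liver, the thrombin receptor gene F2r, at 6.52 ± 3.42 and 10.97 ± 1.59 TPM in the same groups, Colec10 in treated against young control, and Kng2 in both comparisons with young control. Kng2, the second kininogen gene of the mouse, averaged 165 ± 19.0, 216 ± 21.98 and 216 ± 24.5 TPM, and its aged/doxo and treated libraries all lay above the young ones (log2 differences 0.39 and 0.38, limma adjusted p = 1 and 0.734). The groups of 3 other genes of these lists also did not overlap with young control. C4a was lower in treated liver (6.74 to 9.87 TPM against 10.6 to 22.8 TPM) and Colec10 higher. Proca1, listed though not a clotting gene, was lower in aged/doxo (1.93 to 2.74 TPM) and treated liver (1.5 to 2.80 TPM) than in young control (2.87 to 3.15 TPM). Of all genes, 0.689% lay clear of young control on the higher and 0.312% on the lower side in aged/doxo, and 3.66% and 0.358% in treated liver. Aged/doxo library 2 was not low in Kng2, in contrast to most members. Colec10, a collectin that can start the lectin pathway, averaged 1.74 ± 0.24, 1.89 ± 0.54 and 2.79 ± 0.65 TPM. Of a list of hepatocyte transcription factor and interleukin-6 signalling genes, 18 of 19 were tested and none passed the adjusted threshold. At an unadjusted p under 0.05 the nuclear receptor genes Ppara and Nr0b2 were higher in treated than in aged/doxo liver, by 0.72 and 0.70 on the log2 scale (limma adjusted p = 0.427 for both). Of 17 acute phase genes, which respond to inflammation, none passed the adjusted threshold. Their median log2 differences were 0.09, 0.04 and 0.20, and became 0.24, -0.17 and 0.015 without both libraries that stood apart. Saa3 alone had an unadjusted p under 0.05 among them, with a log2 difference of -0.83 in treated against aged/doxo liver (limma adjusted p = 0.427), at 8.69 ± 2.59 against 16.7 ± 6.54 TPM.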

How the data were processed

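RNA of mouse liver was sequenced in 12 libraries. The authors deposited a table of TPM values per gene, made with fastp, HISAT and RSEM per the submitters' processing notes. Their versions, the genome build and strandedness are not stated there. TPM keeps no depth, and very abundant genes can move the rest. From the deposited TPM, log2(TPM + 1) was computed for the 10883 genes with a mean of at least 1 TPM. limma 3.58.1 in R 4.3.3 fitted group as the only term with an intensity trend, two-sided, with Benjamini-Hochberg adjustment over all genes and a threshold of 0.05. The pseudocount makes differences of low genes smaller than they are. Within-library ratios were compared by exact permutation of 4 against 4 libraries. The code was tested on simulated data. Gene positions came from GENCODE M21 (GRCm38) through the Ensembl identifier. Any member could be named, and values in every library were given for the lectins, the fibrinogen genes, the 3 highest and lowest members and those of smallest p. The members, lists and tests were chosen with earlier results of these data known. Alternatives covered pseudocount, filter, scaling, covariates, the replicate number and each library left out.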

Additional observations from a re-analysis of the deposited data

Results flagged for a closer look

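Single libraries lay far from the rest of their group in 7 of 123 sets of 4 libraries (41 genes in 3 groups), by the gap to the nearest library as a share of the group's range beyond Dixon's critical value for 4 samples. Chance flags about 1 in 20 groups. In aged/doxo, library 2 was the low one for F11 (gap share 0.908), Serpinc1 (0.859) and Masp2 (0.83). In treated liver, library 1 was low for Serping1 (0.915), Plg (0.874) and C4bp (0.835), and library 4 was high for C8b (0.964), at 244 TPM against 148 to 152 TPM. The log2 ratio of Fgg to Fgb was low in young control library 1 (0.868) and in aged/doxo library 2 (0.857).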

How the results depend on the processing

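No member passed the adjusted threshold under any alternative, except Mbl2 without aged/doxo library 2 (members called 0 to 1 in aged/doxo and in treated against young control when 1 library was left out, and 1 in the latter without that library and young control library 1, a choice made after seeing the data, as was the GC term). Without both libraries 1 member, Mbl2, did not overlap on the higher side in aged/doxo against young control (0 with all). Mbl2 kept its sign against young control throughout, at 0.80 to 1.35 in aged/doxo and 1.17 to 1.36 in treated liver with 1 library left out, and its limma adjusted p over all alternatives ran from 0.0249 to 1 and from 0.0219 to 1. The cause of the changes below was not tested.

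The genes called over the whole table, 1 in aged/doxo against young control, 1 in treated against aged/doxo and 3 in treated against young control, numbered 0, 0 and 1 with no filter, 3 and 0 (first 2) with median-of-ratios scaling, 2 and 0 with quantile normalization, 0, 2 and 1 with the compared groups alone and 2 and 0 with a term for the length slope. They were 2 (first) with a pseudocount of 0.1, 2 and 0 with 0.01, 3 (first) and 5 (last) after rescaling without mitochondrial and the 50 most abundant genes, and 0 (second) with a GC term or without both libraries. Leaving out 1 library gave 0 to 2, 0 to 1 and 1 to 5. No pairing of the libraries by replicate number was seen (2 of 12 same-number correlations were over 0.1, beside 14 of 36 others). These correlations cannot exclude a shared handling of same-numbered libraries. The replicate block gave 0, 0 and 1 called genes.

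Median log2 differences of the members turned sign in treated against aged/doxo with the length term (-0.013) and in treated against young control with median-of-ratios scaling (-0.060) and the length term (-0.032), and leaving out 1 library gave -0.32 to 0.11 in aged/doxo against young control, 0.11 to 0.52 and 0.077 to 0.33. In treated against aged/doxo Mbl1 turned to -0.28 (median of ratios), -0.16 (quantile), -0.15 (rescaled) and -0.060 (without both), and Mbl2 to -0.043, -0.016 (length) and -0.096 (without both). In treated against young control Kng1 was -0.026 and Fgb -0.018 with median-of-ratios scaling, the length term gave 0.021 (Mbl1), -0.18 (Fga), -0.061 (Fgb) and -0.15 (Fgg), and Mbl1 was 0.0021 without both, and 0.062 in aged/doxo against young control. With 1 library left out, aged/doxo against young control spanned -0.96 to 0.19 (Fga), -0.52 to 0.051 (Fgb), -0.74 to 0.15 (Fgg) and -0.22 to 0.016 (Mbl1), treated against aged/doxo -0.060 to 0.18 (Mbl1) and -0.096 to 0.45 (Mbl2), and treated against young control -0.12 to 0.0021 (Mbl1).

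With 1 library left out, log2 ratios spanned, in aged/doxo against young control, 0.89 to 1.34 (Mbl2/Mbl1), -0.44 to 0.14 (Fga/Fgb), -0.25 to 0.10 (Fgg/Fgb), and -0.098 to 0.044 (C1s1/C1ra), in treated against aged/doxo -0.037 to 0.41 (Mbl2/Mbl1), -0.057 to 0.29 (Fgg/Fgb) and -0.024 to 0.14 (C8g/C8a), and in treated against young control -0.028 to 0.34 (Fga/Fgb), -0.012 to 0.073 (Fgg/Fgb) and -0.11 to 0.21 (C8b/C8a). The summed share of the members was 4.65%, 4.44% and 4.85% after rescaling, in the order of the groups. Depth cannot be read from TPM, so how precise the lowest members are is unknown.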
